A study of Mus musculus with 2 samples.

Results

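Gsx1, Gsx2, Olig1, Olig2, Sp9, Ebf1 and Ikzf1 are 7 transcription factor genes of the embryonic ventral forebrain. They were chosen by name, as factors of ganglionic eminence progenitors and of the developing striatum, with earlier results of these data known. All 7 were found by symbol among the 55536 genes of the GENCODE M21 annotation of the mouse genome. Their levels came from polyA-selected RNA-seq of whole forebrain from healthy B6NCrl mouse embryos of both sexes at embryonic day 12.5. Pool 1 held the forebrains of 120 embryos and pool 2 those of 68 embryos, and the labels call these libraries biological replicates. There was 1 group and no treatment, so each gene is given with its level in both pools, and differences between the pools are described without a test. Each library measured a pool rather than an animal, so the spread between embryos was not observed.

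The ganglionic eminences are swellings of the ventral telencephalon whose dividing progenitors make the GABAergic neurons of the striatum and many interneurons that migrate to cortex and olfactory bulb. Homeobox factors of the Gsx family are known for setting the identity of the lateral eminence and for holding the boundary with the dorsal telencephalon, while Olig factors mark ventral progenitors that later also produce oligodendrocyte precursors. Sp9, Ebf1 and Ikzf1 act later, in neuroblasts and young neurons on the way to striatal projection neurons, and Ebf1 and Ikzf1 are also classical regulators of lymphocyte development.

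The tissue label was set against marker lists. All 8 telencephalon markers and all 5 diencephalon markers reached 1 TPM (transcript abundance scaled by length and by the library's total) in both pools, and none of 6 midbrain and hindbrain markers did. Gene counts summed to 33373843 in pool 1 and 34406648 in pool 2. RNA of blood and of the coverings of the brain was present in both libraries, and its values are given beside the results it moved with.

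The paralogs Gsx1 and Gsx2, and Olig1 and Olig2, resemble each other in part of their coding sequence. The sequences show how far reads could be mistaken for the other gene. The closest coding windows of each pair are given 5′ to 3′ on the + strand from the GENCODE M21 transcripts, with the bases that differ within a pair in capitals. The Gsx windows lie in the homeobox at chr5:147189810-147189989 and chr5:75077001-75077180, and the Olig windows overlap the basic helix-loop-helix region at chr16:91270264-91270413 and chr16:91226814-91226963 (all GRCm38, also called mm10).
Gsx1: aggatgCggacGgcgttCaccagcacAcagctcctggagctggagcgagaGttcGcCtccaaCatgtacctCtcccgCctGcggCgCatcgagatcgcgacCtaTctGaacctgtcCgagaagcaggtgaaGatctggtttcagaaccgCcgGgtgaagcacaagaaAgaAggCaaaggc
Gsx2: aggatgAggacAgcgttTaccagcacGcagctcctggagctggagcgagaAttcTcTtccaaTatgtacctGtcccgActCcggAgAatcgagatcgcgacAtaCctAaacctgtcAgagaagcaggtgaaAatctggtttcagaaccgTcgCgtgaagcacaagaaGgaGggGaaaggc
Olig1: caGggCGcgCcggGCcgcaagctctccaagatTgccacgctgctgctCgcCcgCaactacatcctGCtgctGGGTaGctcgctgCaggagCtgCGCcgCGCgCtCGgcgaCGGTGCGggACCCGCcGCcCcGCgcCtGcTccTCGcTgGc
Olig2: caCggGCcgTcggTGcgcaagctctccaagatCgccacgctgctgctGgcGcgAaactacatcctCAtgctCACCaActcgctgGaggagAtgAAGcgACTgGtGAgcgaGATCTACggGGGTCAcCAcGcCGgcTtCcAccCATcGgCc
Of the 180 bases compared, Gsx1 and Gsx2 shared 157 (87.2%) and differed at 23. Olig1 and Olig2 shared 96 of 150 bases (64.0%). The longest run of identical bases anywhere in the transcripts was 23 bases between Gsx1 and Gsx2 and 17 bases between Olig1 and Olig2. No stretch of 100 bases of a Gsx1, Gsx2, Olig2, Ebf1 or Ikzf1 transcript occurred in a transcript of another gene on either strand. In Olig1 58 of 2063 such stretches (2.81%) and in Sp9 173 of 4945 (3.50%) did, each on the opposite strand. Olig1 shared them with the noncoding gene Gm15966, which it overlaps by 157 bases, and Sp9 with Cir1, which it overlaps by 1602 bases, and with Gm2810, which does not overlap it.

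In both pools 6 of the 7 genes reached 1 TPM, the level used here to call a gene detected, and Ikzf1 did not. Over the whole annotation 27.8% of genes were detected in both libraries, and over protein-coding genes 58.9% were. Ebf1, Gsx2 and Olig2 were the most abundant of the 7 by mean TPM, followed by Sp9, Olig1, Gsx1 and Ikzf1. The ranges of the pools overlapped among Ebf1, Gsx2 and Olig2, so no order holds between those 3. For every other pair of neighbours in the order the ranges of the pools did not overlap. Within pool 1 Gsx2 led, whereas within pool 2 Ebf1 did.

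**Figure D1:**
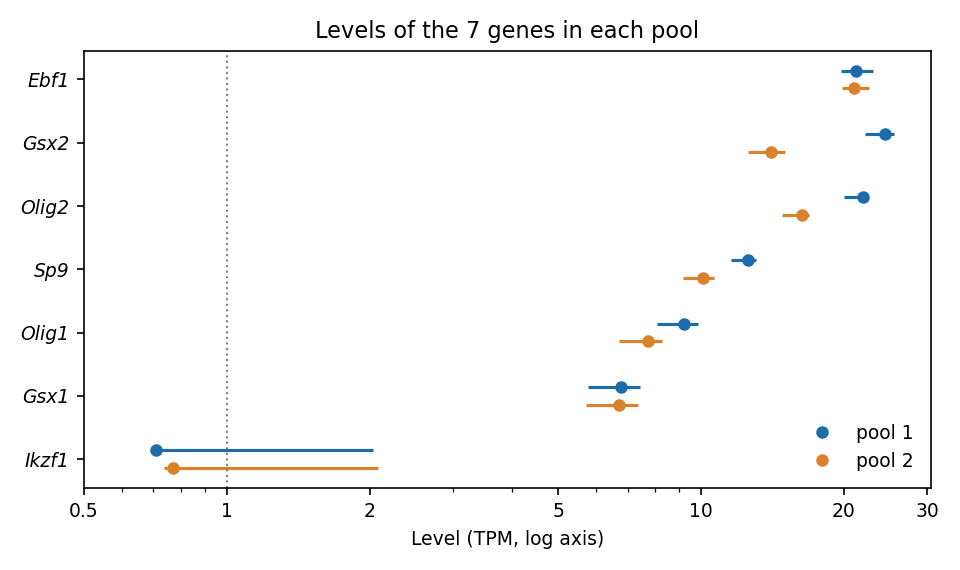
TPM of each of the 7 genes in each library (log axis), with points for pool 1 and pool 2, a dotted line at 1 TPM and bars for the deposited interval of the posterior mean TPM, which covers read assignment within a library. Gsx2 stands highest in pool 1 at 24.4 TPM and below Ebf1 and Olig2 in pool 2 at 14.05 TPM, while Ikzf1 lies below 1 TPM in both.

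Gsx2, a homeodomain factor that maintains progenitors of the lateral eminence in mouse, is encoded at chr5:75075601-75077893 on the + strand. Its level was 24.4 TPM in pool 1 against 14.05 TPM in pool 2, or 19.2 ± 7.33 TPM (SD, n = 2). Pool 1 was the higher, and the deposited intervals of 22.2 to 25.5 TPM in pool 1 and 12.5 to 15.0 TPM in pool 2 did not overlap. From 812 estimated reads in pool 1 and 482 in pool 2, the ratio of normalised counts of pool 1 over pool 2 was 1.77-fold, with a 95% counting interval of 1.58 to 1.99. Among the protein-coding genes, 72.3% had a lower TPM than Gsx2 in pool 1 and 63.5% in pool 2. In bulk tissue of this kind, fewer cells of a type and less RNA per cell cannot be told apart.

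Gsx1, the paralog known in mouse for moving lateral eminence progenitors toward neurogenesis, is encoded at chr5:147188696-147190947 on the + strand. It stood at 6.78 TPM in pool 1 against 6.73 TPM in pool 2, or 6.755 ± 0.035 TPM (SD, n = 2), from 241 and 249 estimated reads. The pools did not differ beyond counting error, with a ratio of pool 1 over pool 2 of 1.02-fold (95% counting interval 0.851 to 1.22). Gsx2 therefore exceeded Gsx1 by different factors in the libraries. The ratio of Gsx2 TPM to Gsx1 TPM, which needs no scaling between libraries, was 3.60 in pool 1 (95% counting interval 3.12 to 4.18) and 2.09 in pool 2 (1.79 to 2.44), and these intervals did not overlap. Both genes stood alone, with no annotated gene overlapping them.

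Olig2, a basic helix-loop-helix factor of ventral progenitors and a determinant of motor neuron and oligodendrocyte fate in the spinal cord, is encoded at chr16:91225457-91228677 on the + strand. Its level was 21.9 TPM in pool 1 compared with 16.3 TPM in pool 2, or 19.1 ± 3.97 TPM (SD, n = 2). Pool 1 was again the higher, with deposited intervals of 20.0 to 22.5 TPM in pool 1 and 14.8 to 16.9 TPM in pool 2 that did not overlap. The ratio of normalised counts of pool 1 over pool 2 was 1.36-fold (95% counting interval 1.24 to 1.49), short of the 1.5-fold limit.

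Olig1, which promotes oligodendrocyte maturation, lies 41094 bases from Olig2 on the same strand, at chr16:91269772-91271933. It stood at 9.22 TPM in pool 1 against 7.74 TPM in pool 2, or 8.48 ± 1.05 TPM (SD, n = 2). The deposited intervals of 8.08 to 9.83 TPM in pool 1 and 6.71 to 8.28 TPM in pool 2 overlapped, and the ratio was 1.21-fold (95% counting interval 1.04 to 1.39). The Olig2 level was 2.38 times that of Olig1 in pool 1 (2.12 to 2.67) and 2.10 times in pool 2 (1.86 to 2.39), so the proportion of the Olig pair was alike in the libraries within counting error, which was not so for the Gsx pair. Whether the counting used strand is not given, so reads in the overlap with Gm15966, itself at 0.41 TPM in pool 1 against 0.05 TPM in pool 2, cannot be assigned with certainty.

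Sp9, a zinc finger factor required in mouse for striatal projection neurons of the indirect pathway and for interneuron development, is encoded at chr2:73271925-73284706 on the + strand. It stood at 12.6 TPM in pool 1 compared with 10.1 TPM in pool 2, or 11.3 ± 1.75 TPM (SD, n = 2), from 1170.24 and 949.99 estimated reads. The deposited intervals of 11.6 to 13.1 TPM in pool 1 and 9.17 to 10.7 TPM in pool 2 did not overlap, and the ratio was 1.30-fold (95% counting interval 1.19 to 1.42). The overlapping gene on the other strand, Cir1, had 20.3 TPM in pool 1 against 18.8 TPM in pool 2, and it meets only Sp9-202, a noncoding transcript of 656 bases that ends beyond Sp9-201.

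Ebf1, a helix-loop-helix factor of young striatal neurons of the direct pathway, spans 390775 bases at chr11:44617317-45008091 on the + strand. Its level was 21.2 TPM in pool 1 against 21.01 TPM in pool 2, or 21.1 ± 0.156 TPM (SD, n = 2), from 1648 and 1812 estimated reads. The pools were alike within counting error, with a log2 ratio of pool 1 over pool 2 of -0.06 (95% counting interval -0.16 to 0.04). The antisense gene Gm12158, which lies inside Ebf1, had 1.59 TPM in pool 1 compared with 1.87 TPM in pool 2.

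Ikzf1, which encodes Ikaros, a zinc finger factor of lymphocytes and, in mouse, of enkephalin-type striatal neurons, is encoded at chr11:11685003-11772926 on the + strand. It stood at 0.71 TPM in pool 1 against 0.77 TPM in pool 2, or 0.74 ± 0.042 TPM (SD, n = 2), from 75 and 73 estimated reads. These values are low but lie above what 3 counts would give, which is 0.028 TPM in pool 1 against 0.032 TPM in pool 2. The deposited posterior mean TPM was higher, at 1.30 in pool 1 and 1.33 in pool 2, with intervals of 0.720 to 2.04 and 0.739 to 2.09, so the point estimate of pool 1 fell just below its own interval. At 1 TPM the detection of Ikzf1 therefore depends on which of the deposited estimates is read.

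**Figure D2:**
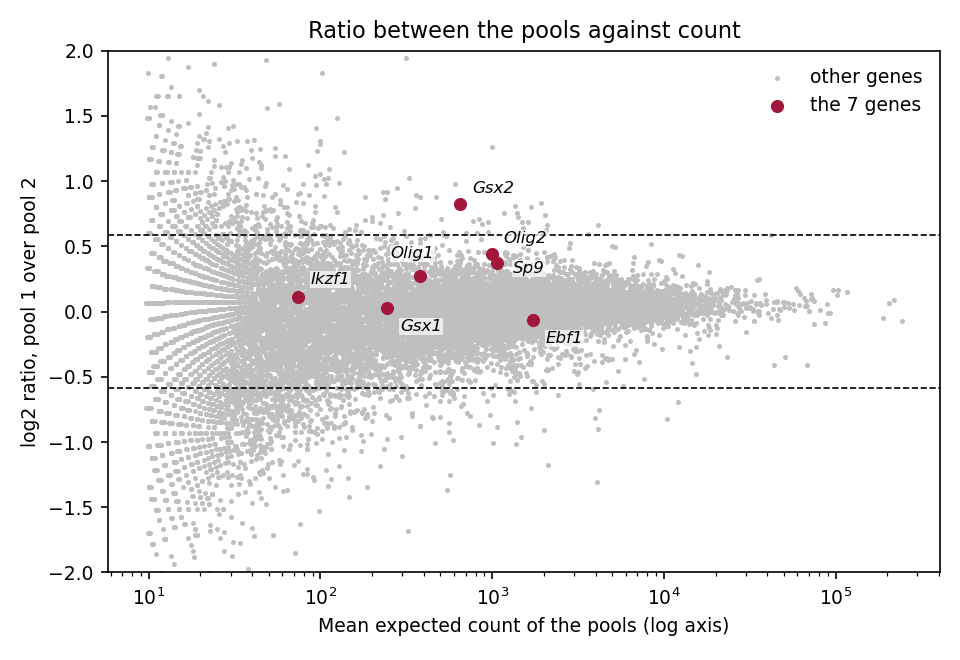
Log2 ratio of TMM-normalised counts of pool 1 over pool 2 against the mean expected count of the pools (log axis), 1 grey point per gene for the 19063 genes whose mean count reached 10 and red points for the 7 genes; dashed lines mark 1.5-fold, and 79 genes beyond a log2 ratio of 2 in either direction are not drawn. Gsx2 is the red point outside the dashed lines, at 0.83, and the other 6 lie between -0.06 and 0.44.

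Across the pools, 1 of the 7 genes, Gsx2, passed 1.5-fold higher in pool 1, and none passed it higher in pool 2. Among the 19063 genes compared, 3.26% passed that limit higher in pool 1 and 7.96% higher in pool 2. Among protein-coding genes with a mean of at least 5 TPM, a background added after seeing the data and nearer to Gsx2 in level, 0.377% passed it higher in pool 1. By any amount, 6 of the 7 were higher in pool 1, beside 49.4% of all genes, and their median log2 ratio was 0.27, beside -0.00 over all genes. The signs of Gsx1 at 0.03, Ikzf1 at 0.11 and Ebf1 at -0.06 were not fixed by the data, because their counting intervals include 0 and they turn under at least 1 other setting, namely spike-in scaling for Gsx1 and Ikzf1, library totals for Gsx1, and log2 TPM values for Ebf1 and Ikzf1. Scaled by the ERCC spike-ins (synthetic RNAs added to each library), the median of all genes moved to -0.17. The log2 ratios with that scaling were 0.66 for Gsx2, 0.28 for Olig2, 0.21 for Sp9 and 0.11 for Olig1. Since this scaling shifts every gene alike, their distance from the median of all genes is the same by construction. Of the genes past 1.5-fold, 29.0% were higher in pool 1 with TMM scaling and 15.1% with spike-in scaling.

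Markers of the mesenchyme and of blood differed between the pools in the other direction. All 8 mesenchyme and meninges markers were lower in pool 1, where they summed to 645 TPM, against 786 TPM in pool 2, and their median log2 ratio was -0.41. Of 8 erythroid markers, 7 were lower in pool 1, and they summed to 7731 TPM in pool 1, against 10307 TPM in pool 2. The share of these tissues in the pool difference of Gsx2, Olig2 and Sp9 was not tested. Pericyte markers summed to 27.6 TPM in pool 1 compared with 28.0 TPM in pool 2, and endothelium markers to 71.95 TPM in pool 1 against 70.3 TPM in pool 2.

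Other genes listed for ganglionic eminence progenitors gave the setting for Gsx2 and Gsx1. The tissue was whole forebrain, so levels were not measured in the ganglionic eminences alone. The 5 diencephalon markers summed to 229.8 TPM in pool 1 against 242.6 TPM in pool 2. Of them, 2 were higher in pool 1 and 3 in pool 2, and their median log2 ratio was -0.13. The part of the diencephalon in the levels and pool differences of Gsx2, Gsx1, Olig2 and the genes listed below was not tested. All 13 genes of a list of subpallial progenitor factors were detected in both pools, 10 of the 13 were higher in pool 1, and the list's median log2 ratio was 0.21. With TMM scaling 3 of the 13 passed 1.5-fold higher in pool 1, beside 3.26% of all genes compared. They were Dlx2, a homeobox factor of GABAergic neurogenesis, Nkx2-1, the determinant of the medial eminence, and Shh, the ventral signal. Spike-in scaling lowers every log2 ratio alike, with the median of all genes at -0.17. Under it Dlx2 and Shh, at 0.66 and 0.62 with TMM, would fall short of 1.5-fold, and Nkx2-1 would not. Dlx2 had 103.8 TPM in pool 1 against 67.2 TPM in pool 2, and Nkx2-1 had 51.5 TPM in pool 1 compared with 29.1 TPM in pool 2. Nkx2-1 and Gsx2 thus had the same log2 ratio of 0.83 to 2 decimals. Not all of the list was higher in pool 1: Nr2f2, a factor of the caudal eminence, had 100.7 TPM in pool 1 against 126.6 TPM in pool 2.

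Genes of newborn subpallial neurons, the setting for Sp9, were likewise mostly higher in pool 1. Of 13 genes listed, all were detected and 12 were higher in pool 1, and the median log2 ratio was 0.25. With TMM scaling Dlx5, a homeobox factor downstream of Dlx2, and Lhx6, a factor of interneurons of the medial eminence, passed 1.5-fold. So did Lhx8, a factor of cholinergic neurons named here after its values were seen. Under spike-in scaling Dlx5 and Lhx6 would fall short of 1.5-fold, and Lhx8 would not. Lhx6 had 26.7 TPM in pool 1 against 17.15 TPM in pool 2. Lhx8 had 43.2 TPM in pool 1 against 19.6 TPM in pool 2, with a log2 ratio of 1.26. Markers of glutamatergic dorsal progenitors and neurons went the other way in number, since 7 of 10 pallial genes were lower in pool 1, none passed 1.5-fold, and the median log2 ratio was -0.15. Pax6, which opposes Gsx2 at the border of the pallium in mouse, stood at 86.0 TPM in pool 1 compared with 87.2 TPM in pool 2, above Gsx2 in both.

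**Figure D3:**
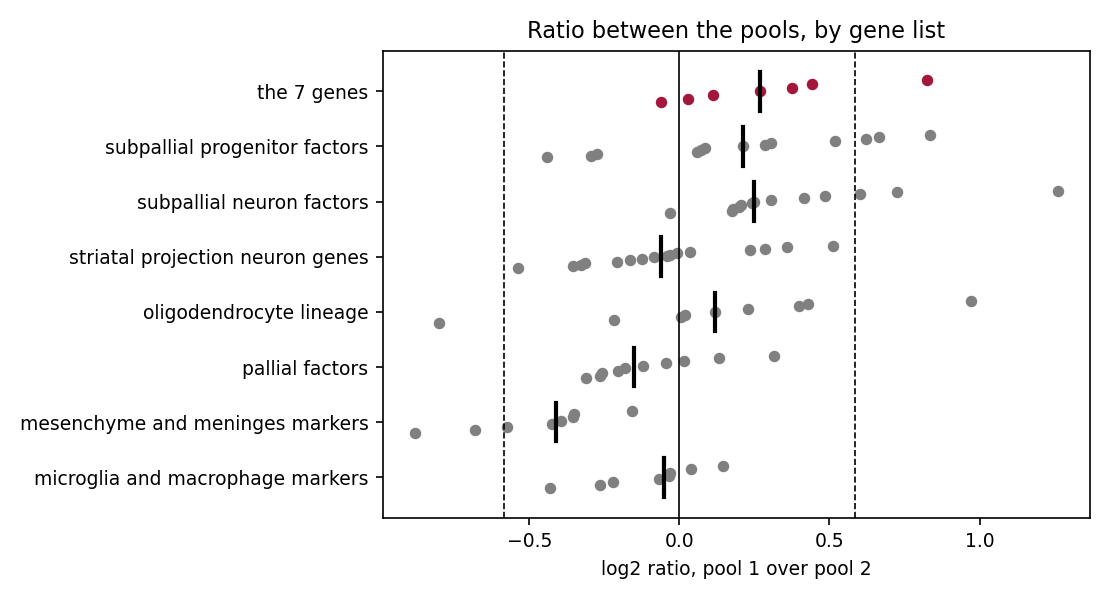
Log2 ratio of TMM-normalised counts of pool 1 over pool 2 for each gene of 8 lists, 1 point per gene, with a black bar at each list's median and dashed lines at 1.5-fold. The 7 genes, the subpallial progenitor factors and the subpallial neuron factors have medians of 0.27, 0.21 and 0.25, and the pallial factors and the mesenchyme and meninges markers have medians of -0.15 and -0.41.

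Genes of striatal projection neurons, the setting for Ebf1 and Ikzf1, showed no such lean. Of 16 genes, 13 were detected. With TMM scaling 5 were higher and 11 lower in pool 1, and none passed 1.5-fold. The median log2 ratio was -0.06, the same as that of Ebf1. The early factors Foxp1 and Bcl11b stood at 54.2 and 42.45 TPM in pool 1 and at 60.5 and 36.03 TPM in pool 2. Genes of mature neurons differed in level. The enkephalin gene Penk had 13.6 TPM in pool 1 against 17.0 TPM in pool 2, in the range of Sp9. The lowest 2 of the list were the dopamine receptor gene Drd1, at 0.38 TPM in pool 1 against 0.32 TPM in pool 2, and the dynorphin gene Pdyn, at 0.56 TPM in pool 1 against 0.63 TPM in pool 2. Ikzf1 lay near Drd1 and Pdyn and far below Penk, and Ebf1 lay near the early factor Foxp2, with 23.55 TPM in pool 1 compared with 25.3 TPM in pool 2.

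Ebf1 and Ikzf1 are also made outside the brain, so markers of blood cells are set beside them. None of 8 lymphoid markers was detected, and they summed to 1.36 TPM in pool 1 against 1.02 TPM in pool 2. The highest of them, Cd79b, had 0.69 TPM in pool 1 against 0.58 TPM in pool 2, from 16 and 14 estimated reads. That is near the level of Ikzf1, which was also below 1 TPM, so this limit does not set the genes apart. Cd3e, a subunit of the T cell receptor complex, had 0 counts in both, a limit of 0.125 TPM in pool 1 and of 0.120 TPM in pool 2. Of 8 microglia and macrophage markers, 7 were detected and 6 were lower in pool 1, with sums of 46.8 TPM in pool 1 against 52.9 TPM in pool 2. The pan-leukocyte gene Ptprc had 0.82 TPM in pool 1 compared with 0.64 TPM in pool 2, near the level of Ikzf1. Mesenchyme markers, in whose tissue Ebf1 is also known to be made, were all detected. The part of mesenchyme and blood cells in the Ebf1 and Ikzf1 levels was not tested.

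The oligodendrocyte lineage genes were set beside Olig1 and Olig2. Of 10 genes, 6 were detected in both pools, and they summed to 46.6 TPM in pool 1 against 46.4 TPM in pool 2. Pdgfra, the growth factor receptor of oligodendrocyte precursors and also of mesenchyme, was at 12.25 TPM in pool 1 against 14.8 TPM in pool 2. Sox10, the lineage factor of oligodendrocytes and neural crest, was at 1.15 TPM in pool 1 compared with 1.89 TPM in pool 2, and the myelin gene Mag was at 0.10 TPM in pool 1 against 0.27 TPM in pool 2. In both pools Olig2 stood above each gene of this list. Past 1.5-fold were Gpr17, a receptor of oligodendrocyte precursors, higher in pool 1 with a log2 ratio of 0.97, and Sox10, lower in pool 1 with -0.80, both at about 1 TPM. Olig2 and Olig1, at 0.44 and 0.27, lay between them.

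The relatives of the 7 genes differed widely in level. Olig3, a factor of dorsal progenitors and of the thalamus, had 26.6 TPM in pool 1 against 26.9 TPM in pool 2, above Olig2 in both. Its pools were alike, with a log2 ratio of 0.00, unlike Olig2. Sp8, the closest relative of Sp9 in known function, had 23.1 TPM in pool 1 compared with 19.45 TPM in pool 2, above Sp9 in both. In the Sp family 6 of 8 relatives were detected, and the general factor Sp3 was the most abundant with 63.8 TPM in pool 1 against 61.0 TPM in pool 2.

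Among the Ebf genes, Ebf2 came nearest to Ebf1, with 17.5 TPM in pool 1 against 16.0 TPM in pool 2. Ebf4 had 2.30 TPM in pool 1 compared with 2.12 TPM in pool 2. Ebf3, a factor of Cajal-Retzius and other early neurons, had 2.69 TPM in pool 1 against 4.98 TPM in pool 2, and was the only Ebf gene past 1.5-fold, with a log2 ratio of -0.66. Among the Ikaros genes, Ikzf5 had 16.15 TPM in pool 1 against 17.7 TPM in pool 2, Ikzf2 had 4.60 TPM in pool 1 against 4.42 TPM in pool 2, and Ikzf4 had 6.04 TPM in pool 1 against 5.35 TPM in pool 2. The lymphoid factor Ikzf3 was at 0.02 TPM in pool 1 compared with 0.03 TPM in pool 2, so Ikzf1 stood above Ikzf3 and below the other 3 relatives.

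**Figure D4:**
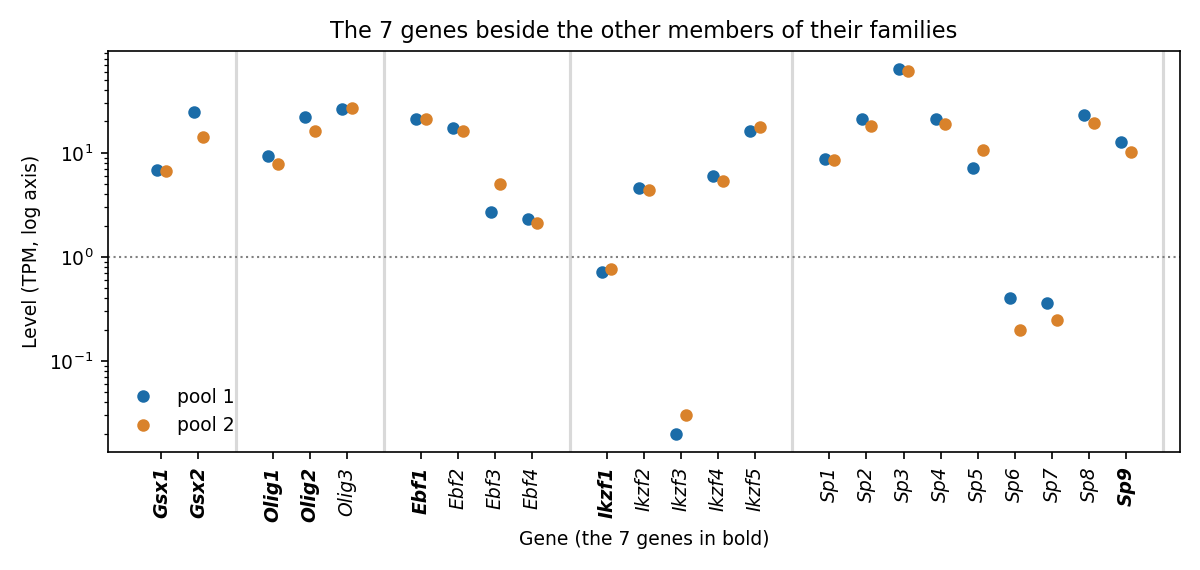
TPM of the members of the Gsx, Olig, Sp, Ebf and Ikzf families in pool 1 and pool 2 (log axis), 1 point per library, with a dotted line at 1 TPM. Olig3, Ebf1, Sp3 and Ikzf5 are the highest of their families, and Ikzf3 is the lowest gene shown, at 0.02 TPM in pool 1 against 0.03 TPM in pool 2.

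The nearest genes in level and pool difference were sought among 62 genes of the progenitor, neuron, striatal, oligodendrocyte and pallial lists, by Euclidean distance of log2(TPM + 1) over the 2 libraries. Gsx2 lay nearest to Lhx6 (distance 0.30) and Gad1 (0.42), and Olig2 nearest to Gad1 (0.21) and Sp8 (0.25). Sp9 lay at 0.05 from Prox1 and Ebf1 at 0.04 from Six3, both factors of forebrain progenitors. Ikzf1 lay nearest to Drd2, at 0.09. The distance takes in both the level and the difference between the pools.

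Transcript tables showed which forms made up these levels. Gsx1, Olig1 and Olig2 have 1 annotated transcript each. Gsx2-201, the full-length form, carried 100% of Gsx2 in pool 1 and 96.85% in pool 2. The shorter Gsx2-202, whose coding part ends at the start of the homeobox window shown above, was listed at 0 TPM in pool 1 against 0.44 TPM in pool 2. Under the older GENCODE M4 tables Gsx2-202, annotated there with 1320 rather than 1182 bases, held 7.77% in pool 1 and 12.3% in pool 2, so its share depends on the annotation. Sp9-201 carried 99.1% of Sp9 in pool 1 and 95.8% in pool 2, and Sp9-202 rested on 1.35 and 5.27 estimated reads.

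Ebf1 was spread over several transcripts. Ebf1-202 held 56.8% in pool 1 and 59.0% in pool 2, and Ebf1-201 held 19.3% in pool 1 and 22.2% in pool 2. These forms differ in a few bases at a coding exon join and in length after the stop codon, which is 781 bases in Ebf1-202 and 3343 bases in Ebf1-201. The join at chr11:44883902-44907936 is given for 3 forms from the GENCODE M21 transcripts, + strand, with the bases that at least 1 of the 3 lacks in capitals.
Ebf1-201: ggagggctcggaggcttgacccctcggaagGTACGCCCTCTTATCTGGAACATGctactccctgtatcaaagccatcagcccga
Ebf1-202: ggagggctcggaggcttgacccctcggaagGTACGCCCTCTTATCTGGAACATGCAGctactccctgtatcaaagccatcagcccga
Ebf1-203: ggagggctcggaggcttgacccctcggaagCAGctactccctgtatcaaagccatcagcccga
Ebf1-203, which lacks the 24 bases at the end of the upstream exon, stood at 1.15 TPM in pool 1 compared with 0.60 TPM in pool 2. Its deposited intervals were wide and overlapped, at 0.12 to 2.79 TPM in pool 1 and 0.0039 to 2.24 TPM in pool 2. Ebf1-202, which has the 24 bases, stood at 12.1 TPM in pool 1 against 12.4 TPM in pool 2. Ebf1-203 also ends 247 bases after the stop codon, so the join is not all that sets it apart. Ebf1-201 lacks the 3 bases that open the downstream exon. The noncoding Ebf1-207 accounted for 11.6% in pool 1 and 13.95% in pool 2. Thus forms with the 24 bases were the larger part of the estimated coding transcripts in both pools. The shares are estimates of reads divided among forms that overlap almost throughout.

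In Ikzf1, Ikzf1-204 held 85.3% in pool 1 and 83.15% in pool 2, from 64.83 and 72 estimated reads. Ikzf1-203, which has an exon of 60 bases at chr11:11740950-11741009 that Ikzf1-204 lacks, had 10.17 estimated reads in pool 1 and 0 in pool 2. The joins around that exon are given with the exon in capitals.
Ikzf1-203: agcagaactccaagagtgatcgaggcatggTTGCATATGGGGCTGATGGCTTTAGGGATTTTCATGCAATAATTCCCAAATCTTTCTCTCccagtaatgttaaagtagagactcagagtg
Ikzf1-204: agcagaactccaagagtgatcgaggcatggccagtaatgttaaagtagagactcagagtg
At this depth no difference in use of the exon between the pools can be claimed, since the whole gene had 75 and 73 estimated reads. The 16.85% of pool 2 given to Ikzf1-205 rested on 1 read of a short transcript of 446 bases. Ikzf1-206, with 0 estimated reads in both libraries, still carried a posterior mean TPM of 0.32 in pool 1 and 0.31 in pool 2, and such transcripts make up much of the gap between the point and posterior levels of Ikzf1.

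**Figure D5:**
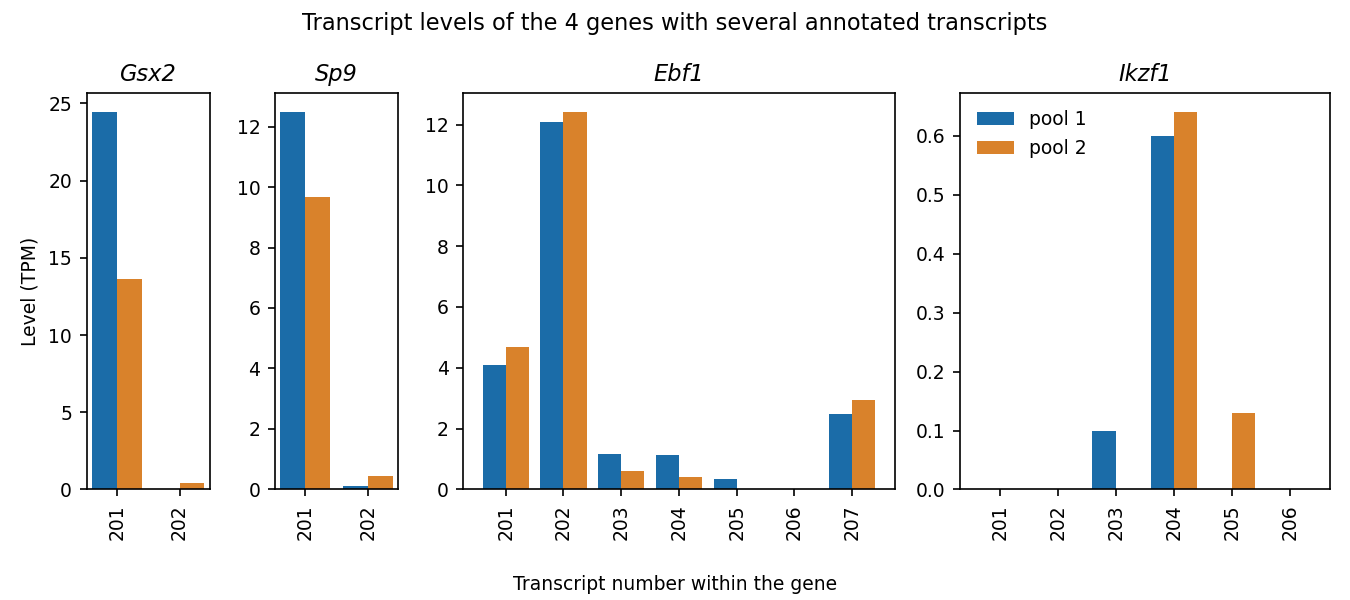
TPM (bars, on an axis per gene that starts at 0) of each annotated transcript in pool 1 and pool 2, for Gsx2, Sp9, Ebf1 and Ikzf1, which have more than 1 transcript. Gsx2-201 and Sp9-201 hold nearly all of their genes in both pools, whereas Ebf1-202, at 12.1 TPM in pool 1 against 12.4 TPM in pool 2, stands beside Ebf1-201 and Ebf1-207.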

How the data were processed

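PolyA RNA was primed with oligo-dT, amplified as full-length cDNA from 10 ng, cut by Nextera tagmentation and spiked with ERCC RNAs, per the labels' protocols. For each library the authors deposited tables of genes and of transcripts. The deposited expected counts are estimated reads, the deposited TPM values are scaled to 1000000 per library, and the deposited FPKM values, named so per the file headers, were used in 1 alternative, rescaled over genes without spike-ins. Posterior mean TPM and the bounds around it, also deposited by the authors, were taken as a score, and the level of those bounds is not given in the file headers. The deposited transcript share is a percent of the gene's TPM. The aligner, quantifier, versions and strand setting were not given in the sources used here.

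GENCODE M21 tables (GRCm38) were the main ones and M4 the alternative, where 7 of 7 genes matched. Detected means at least 1 TPM in both libraries. Expected counts, rounded, were scaled by TMM (edgeR 4.0.16) over 19063 genes whose mean count reached 10, and log2 ratios used a prior count of 1. DESeq2 1.42.0 size factors were an alternative, with R 4.3.3, Python 3.11.15, numpy 2.4.6, pandas 2.3.3 and scipy 1.17.1. There was no test of the pools, because each is 1 library. Ratio intervals are exact binomial at 95%. They and the floors of 3 counts take in counting error alone and treat reads as independent. No molecular identifiers are described and PCR copies are not independent, so the intervals may be too narrow even for counting error. Spike-ins took 3.58% of counts in pool 1 and 3.28% in pool 2, and entries that name no gene took 5.74e-05% in pool 1 and 9e-05% in pool 2 and stayed out of library sizes.

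The 7 genes and all lists were chosen with earlier results of these data known. Genes named beside the 7 were their family members, overlapping genes, any gene of a list of 10 or fewer, the 4 highest and 2 lowest by mean TPM of a longer list, and the 2 list genes nearest to each by distance of log2(TPM + 1). Counts of 19061 genes were simulated with a coefficient of variation set to 10% for every gene. A fold of 2 was recovered as a median of 1.97, with 90.0% of those genes past 1.5-fold. A fold of 1.5 was recovered as 1.48, with 47.0% past it, and 3.02% of unchanged genes passed 1.5-fold. In the data 11.2% of genes passed 1.5-fold in either direction, so the simulated 3.02% does not describe these libraries.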

Additional observations from a re-analysis of the deposited data

How the results depend on the processing

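No paired analysis was possible because the labels give 1 group and no contrast. The count of detected genes was 6 of 7 at 1 TPM, at 2 TPM and with the M4 tables, was 7 at 0.5 TPM and with posterior mean TPM, and was 6 to 6 with either library left out. The share of all genes detected, 27.8%, was taken at 1 TPM with M21 alone. The count of genes past 1.5-fold was 1 under every other scaling, prior count, filter and annotation tried. Beside it, the share of all genes past 1.5-fold was 11.2% with DESeq2 size factors, 11.6% with library totals and 14.1% with spike-ins. It was 11.7% with a prior count of 0.25, 9.05% with a prior count of 5 and 32.5% with no filter. With log2(TPM + 1) it was 2.22%, and with M4 it was 9.43%. The count was 3 at a log2 limit of 0.32 (with 23.5% of all genes past it) and 0 at 2-fold (3.81%). The pool difference could not be recomputed without a library. Of 42 alternative log2 ratios of the 7 genes, 39 stayed within the counting interval and 3 moved, all with spike-in scaling (Olig2 to 0.28, Sp9 to 0.21 and Ebf1 to -0.22), and 7 changed sign, in Gsx1, Ebf1 and Ikzf1. Of 21 alternative mean TPM values, from M4, posterior means and rescaled FPKM, 14 stayed within the spread between pools. Depth limits Ikzf1 and its transcripts most. The log2 ratio of Gsx2 was 0.83 with TMM, 0.66 with spike-ins and 0.76 with log2(TPM + 1).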
